A study of Mus musculus with 7 samples.

Results

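The 9 genes of glutamine synthesis and amino acid transport were followed in tibialis anterior (TA) muscle, made mostly of fast fibers, of mice with and without the muscle-enriched microRNA miR-486. They were chosen by name, with earlier results of these data known, and found in the count table by their Ensembl identifiers. All 9 were found among the 48795 genes of the table, and all 9 were among the 14002 genes that passed the filter on low counts. They are Glul, the transporter genes Slc7a5, Slc3a2, Slc1a5, Slc38a2, Slc7a8 and Slc43a1, and the genes of the first enzymes of branched-chain amino acid breakdown, Bcat2 and Bckdha. Total RNA was sequenced from male mice at 6 months of age, in 3 WT and 4 miR-486 KO libraries. In the KO mice (genotype miR-486-/- in the labels) CRISPR removed the microRNA hairpin, which lies in an intron of Ank1, in the germline. The labels give the strain C57BL/6 for WT and FVB N/J for KO, whereas the WT data columns carry FVB in their names, and by the study's methods all mice were analysed on 1 background; by the labels, strain and genotype cannot be told apart. The study's methods describe the replicates of each cohort as mice, while the labels do not tie a library to an animal, and the p-values cover the spread between these libraries.

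Skeletal muscle is the main site of glutamine release in the body. Glutamine synthetase joins ammonia to glutamate inside the fiber, and much of the glutamate is made with nitrogen that branched-chain amino acids give up in their first, reversible breakdown step. Glutamine and the branched-chain amino acids then cross the plasma membrane through different carriers, among them exchangers that let one amino acid out as another comes in. Branched-chain amino acid entry, leucine above all, also signals to mTORC1, the kinase complex that drives protein synthesis.

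Reads counted on genes came to between 23839577 and 28168275 per library. Reads on the short Mir486 gene model were 1, 1 and 0 in WT and 0 in every KO library, so this RNA preparation did not measure the deleted microRNA. Levels below are given as CPM, a gene's reads as a scaled share of its library's gene reads with TMM correction for composition. The host gene Ank1 had between 244 and 299 CPM in all 7 libraries (log2 fold change -0.10, SE 0.12, edgeR adjusted p = 0.637). The 6 skeletal muscle markers summed to between 102237 and 128811 CPM, as the tissue label says. The third WT library, WT 3, stood apart. It alone lay at the far end of the first principal component, which held 53.9% of the variance. Mitochondrially encoded genes took 22.4% of its gene reads against 13.0% to 17.9% in the other 6, and the macrophage marker Cd68 was at 22.8 CPM in it against 1.13 to 2.82 CPM in the others. Results that rest on WT 3 are therefore given with and without it.

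Of the 9 members, 2 rose in KO, 0 fell and 7 did not pass the test. Those that rose were Glul, glutamine synthetase, and Slc7a5, the light chain of the leucine exchanger. Over all tested genes, edgeR called 0.964% higher and 1.85% lower in KO at an adjusted p under 0.05. The median log2 fold change of the members was 0.41, beside -0.02 over all tested genes. The KO and WT libraries did not overlap, with KO higher, in 4 members (Glul, Slc7a5, Bcat2 and Bckdha), and in 0 with KO lower. Over all tested genes 11.0% lay higher and 11.4% lay lower without overlap. Because the members were chosen with earlier results of these data known, these shares are set side by side and are no test. When WT 3 was left out, 6 members rose and 0 fell, in a fit that called 6.15% of 14187 genes higher and 6.55% lower. The 6 were Glul, Slc7a5, Slc7a8, Slc1a5, Bcat2 and Bckdha.

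**Figure D1:**
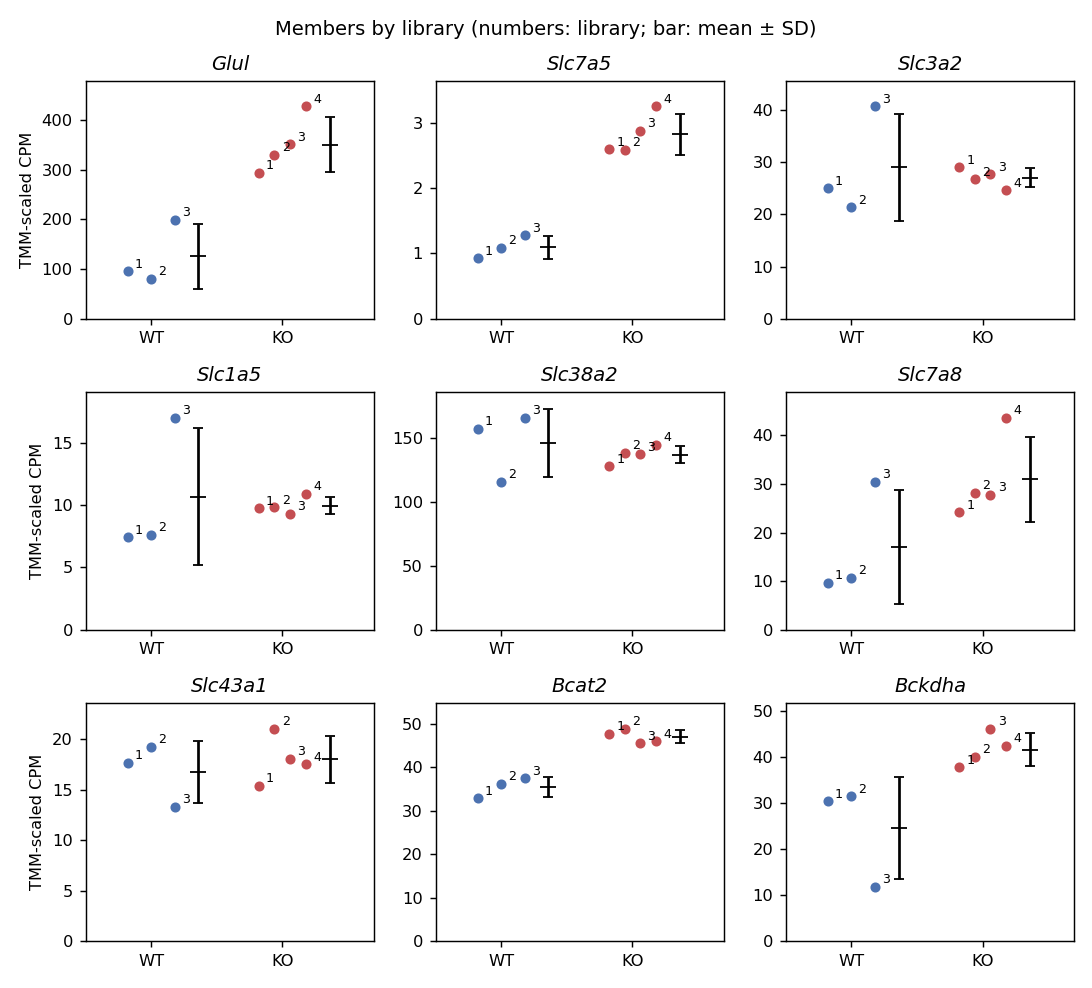
Each panel plots 1 member, with TMM-scaled CPM on a linear axis from 0, 1 point per library with its replicate number, and the mean ± SD of the 3 WT and 4 KO libraries as a bar. All 4 KO points lie above all 3 WT points for Glul, Slc7a5, Bcat2 and Bckdha, and WT 3 is the WT point nearest to KO for Glul (199 CPM) and the farthest from it for Bckdha (11.8 CPM).

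Glul (ENSMUSG00000026473.15, chr1:153899944-153909723, plus strand, GRCm38) encodes glutamine synthetase, which makes glutamine from glutamate and ammonia. It was at 95.7, 80.8 and 199 CPM in WT 1 to WT 3 and at 294, 330, 351 and 427 CPM in KO 1 to KO 4. The lowest KO library was above the highest WT library, and WT 3 had more than the other WT libraries. The WT mean was 125 ± 64.7 CPM (SD, n = 3) and the KO mean 351 ± 56.2 CPM (SD, n = 4), so that Glul rose 2.80-fold (log2 fold change 1.49, SE 0.32, 95% interval 0.76 to 2.21). The edgeR adjusted p was 0.0494, close to the threshold. Without WT 3 the rise was 3.99-fold (log2 fold change 2.00, edgeR adjusted p = 6.49e-05). The call was lost when any other library was left out, with edgeR adjusted p of 0.101 and 0.0960 without WT 1 and WT 2, and 0.114, 0.129, 0.136 and 0.141 without KO 1 to KO 4.

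On a scale that divides CPM by the length of the gene's exons, Glul was the most abundant member in both groups, at 37.7 ± 19.5 CPM per kb in WT and 106 ± 16.9 CPM per kb in KO. In WT, Slc38a2 (16.6 ± 3.04 CPM per kb) came next, followed by Bckdha (12.9 ± 5.82), Bcat2 (9.10 ± 0.61), Slc3a2 (8.23 ± 2.91), Slc7a8 (3.39 ± 2.34), Slc43a1 (2.93 ± 0.54), Slc1a5 (2.56 ± 1.31) and last Slc7a5 (0.295 ± 0.048). The ranges of neighbours in this WT order overlapped throughout from Slc38a2 down to Slc1a5, so only the first and last places stood clear. In KO the levels ran Glul, Bckdha (21.9 ± 1.88 CPM per kb), Slc38a2 (15.5 ± 0.79), Bcat2 (12.1 ± 0.40), Slc3a2 (7.67 ± 0.53), Slc7a8 (6.18 ± 1.73), Slc43a1 (3.15 ± 0.41), Slc1a5 (2.38 ± 0.17) and Slc7a5 (0.762 ± 0.084). There the only neighbours whose ranges overlapped were Slc3a2 and Slc7a8.

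Slc7a5 (ENSMUSG00000040010.10, chr8:121881150-121907694, minus strand) encodes the light chain of the exchanger that brings leucine and other large neutral amino acids into cells, often against glutamine going out. It was the rarest member, with 27, 29 and 31 reads in WT 1 to WT 3 and 69, 65, 77 and 79 reads in KO 1 to KO 4. These were 0.921, 1.09 and 1.28 CPM in WT and 2.59, 2.58, 2.88 and 3.25 CPM in KO. Every KO library held more than every WT library, and WT 3 was close to the other WT libraries. It rose 2.58-fold, the group means being 1.10 ± 0.18 CPM over the WT libraries and 2.83 ± 0.31 CPM over those of KO (± SD). On the log2 scale this was 1.37 (SE 0.20, 95% interval 0.92 to 1.82, edgeR adjusted p = 0.0175). Without WT 3 the log2 fold change was 1.49 (edgeR adjusted p = 0.00175), and without WT 1 the call held at 0.0400. It was lost without WT 2 (edgeR adjusted p = 0.0502) and without KO 1, KO 2, KO 3 or KO 4 (0.0579, 0.0593, 0.0765 and 0.0712).

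Slc7a5 is also strongly expressed by the endothelium of some tissues, and in a whole muscle fewer cells of a type and less RNA per cell cannot be told apart. Of the 7 endothelial markers, 0 rose and 1 fell (all genes: 0.964% and 1.85%). It was Kdr, a receptor for vascular endothelial growth factor (71.5 ± 11.9 CPM in WT, 37.3 ± 5.76 CPM in KO, log2 fold change -0.94, SE 0.16, edgeR adjusted p = 0.0263). In 3 of the 7 the KO libraries lay below the WT libraries without overlap, and in 0 above (all genes: 11.4% and 11.0%). Without WT 3, 3 of the 7 fell (Kdr, Cdh5 and Tek), beside 6.55% of all genes in that fit. The call of Kdr was lost without any other library (edgeR adjusted p 0.0591 to 0.0980). The summed level of the 7 was 327 to 385 CPM in WT and 247 to 285 CPM in KO, and 0 of them were at 0 in every library. Each KO library thus had a lower endothelial sum and a higher Slc7a5 level than any WT library, and the part of endothelial cells in the result was not tested.

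Slc3a2 (chr19:8706882-8723369, minus strand) encodes the heavy chain that binds Slc7a5 or Slc7a8 and carries them to the cell surface. It was at 25.0, 21.4 and 40.7 CPM in WT and at 29.1, 26.7, 27.7 and 24.7 CPM in KO. The KO values lay inside the WT range, whose top was WT 3. The log2 fold change was -0.10 (SE 0.21, 95% interval -0.58 to 0.38, edgeR adjusted p = 0.798), and 0.22 without WT 3 (edgeR adjusted p = 0.166). The log2 ratio of Slc7a5 to Slc3a2, in which library size cancels, was -4.76, -4.30 and -5.00 in WT and -3.49, -3.37, -3.27 and -2.93 in KO. The ratio was higher in 4 of 4 KO libraries than in any WT library, with a mean difference of 1.42. The two-sided exact permutation p over the 35 arrangements of the libraries was 0.0571, the smallest that 3 against 4 libraries can give, and 0.171 after adjustment over the 3 ratios tested.

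Slc7a8 (chr14:54722209-54781946, minus strand) encodes the other light chain that pairs with Slc3a2 and also exchanges neutral amino acids. It was at 9.72, 10.7 and 30.5 CPM in WT and at 24.2, 28.1, 27.8 and 43.7 CPM in KO. All KO libraries were above WT 1 and WT 2, whereas WT 3 was within the KO range. With all libraries Slc7a8 did not pass the test (log2 fold change 0.87, SE 0.41, 95% interval -0.07 to 1.81, edgeR adjusted p = 0.281). Without WT 3 it rose 3.04-fold (log2 fold change 1.60, edgeR adjusted p = 0.00156). The log2 ratio of Slc7a5 to Slc7a8 differed by 0.34 between KO and WT, from -3.76 ± 0.71 (SD, n = 3) to -3.42 ± 0.24 (SD, n = 4), with an exact permutation p of 0.514. The ratio of Glul to Slc7a5, the genes that rose, was 6.73 ± 0.54 in WT and 6.95 ± 0.09 in KO on the log2 scale, a difference of 0.22 with an exact permutation p of 0.571. Both ratios had an adjusted permutation p of 0.571. Without WT 3 the difference was -0.07 for Slc7a5 to Slc7a8 and 0.49 for Glul to Slc7a5, so the sign of the former turned on WT 3.

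Slc1a5 (chr7:16781340-16798274, plus strand) encodes a sodium-driven exchanger that takes up glutamine. It was at 7.40, 7.62 and 17.0 CPM in WT and at 9.73, 9.81, 9.27 and 10.9 CPM in KO. The KO libraries lay between the lower WT libraries and WT 3, so the sign of the difference turned on WT 3. The log2 fold change was -0.10 with it (SE 0.28, 95% interval -0.75 to 0.55, edgeR adjusted p = 0.854) and 0.41 without it (edgeR adjusted p = 0.0384).

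Slc38a2 (chr15:96687392-96699730, minus strand) encodes a sodium-coupled importer of glutamine and other small neutral amino acids that cells induce when amino acids are scarce. It was at 157, 116 and 166 CPM in WT and at 128, 139, 138 and 145 CPM in KO. The KO libraries lay within the WT range (log2 fold change -0.09, SE 0.15, 95% interval -0.43 to 0.25, edgeR adjusted p = 0.738). Slc43a1 (chr2:84838850-84863594, plus strand) encodes a facilitated carrier of branched-chain and other neutral amino acids that needs no heavy chain. It was at 17.7, 19.3 and 13.3 CPM in WT and at 15.4, 21.1, 18.1 and 17.5 CPM in KO. The groups overlapped (log2 fold change 0.10, SE 0.16, 95% interval -0.26 to 0.47, edgeR adjusted p = 0.731). For both carriers the interval left out a change of 1 log2 unit.

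Bcat2 (chr7:45570153-45589711, plus strand) encodes the mitochondrial transaminase that moves the amino group of leucine, isoleucine and valine onto the acceptor that becomes glutamate. It was at 32.9, 36.2 and 37.4 CPM in WT and at 47.8, 48.9, 45.5 and 46.0 CPM in KO. The groups did not overlap and the libraries of each lay close together, WT 3 included. The means were 35.5 ± 2.36 CPM (SD, n = 3) and 47.1 ± 1.55 CPM (SD, n = 4), and the log2 difference was 0.41 (SE 0.10, 95% interval 0.18 to 0.64). The edgeR adjusted p was 0.0718 and missed the threshold, while DESeq2 gave 0.00266 and edgeR without WT 3 gave 0.00467.

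Bckdha (chr7:25629946-25658981, minus strand) encodes a subunit of the branched-chain ketoacid dehydrogenase, the complex that commits the carbon skeletons to breakdown. It was at 30.3, 31.5 and 11.8 CPM in WT and at 37.8, 40.1, 46.1 and 42.4 CPM in KO. The groups did not overlap, and WT 3 was far below the other WT libraries. The log2 fold change was 0.76 (SE 0.30, 95% interval 0.07 to 1.45, edgeR adjusted p = 0.209) with all libraries, and 0.43 (edgeR adjusted p = 0.0146) without WT 3.

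**Figure D2:**
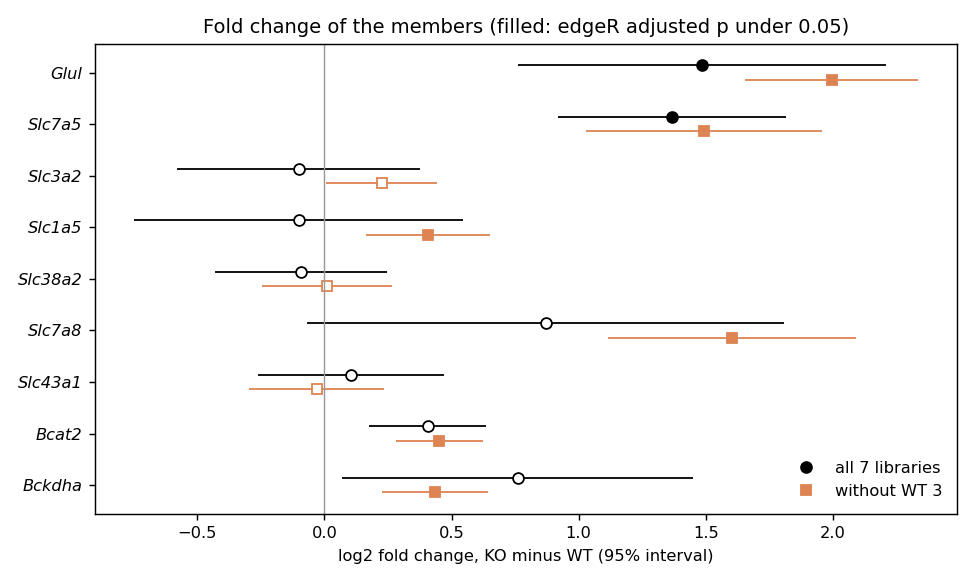
The plot gives the log2 fold change (KO minus WT) of each member on the horizontal axis with its 95% interval, as black circles for all 7 libraries and orange squares without WT 3, filled where the edgeR adjusted p was under 0.05. Glul and Slc7a5 are filled in both fits, at 1.49 and 1.37 with all libraries, and leaving out WT 3 narrows the interval of Slc7a8 and moves Slc1a5 from -0.10 to 0.41.

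The study's methods describe a stranded library kit, but no source used here gives the strand setting of the deposited counts. Counts of 4 members could therefore be affected by an overlapping gene annotated on the other strand. Few reads were assigned to these neighbours, which does not give the number of member reads affected. Over all 7 libraries Teddm2 (beside Glul) had 215 reads, Gm20388 (beside Slc7a5) 0, 0610005C13Rik (beside Bcat2) 95 and B3gnt8 (beside Bckdha) 256.

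The branched-chain amino acid list held 25 further genes of transport into mitochondria, the dehydrogenase complex and the steps down to acetyl-CoA, propionyl-CoA and ketone bodies, and all 25 were tested. By edgeR 0 rose and 0 fell (all genes: 0.964% and 1.85%). An unadjusted p under 0.05 was found for 9 of the 25, against 20.2% of all tested genes. DESeq2 called 6, in a fit that called 2.64% of 15439 genes higher and 3.88% lower. Their median log2 fold change was 0.33, against -0.02 over all tested genes, and 24 of 25 were positive. The exception was Bcat1, at 1.16 CPM on average in WT and 0.568 CPM in KO (log2 fold change -1.01, edgeR adjusted p = 0.249). In 13 of the 25 the KO libraries lay above the WT libraries without overlap, and in 0 below (all genes: 11.0% and 11.4%). The smallest p belonged to Acat1, a thiolase of the last step of isoleucine and ketone body breakdown. Acat1 was at 237, 229 and 187 CPM in WT and at 359, 323, 359 and 308 CPM in KO. The KO libraries were all higher, and WT 3 was the lowest library (log2 fold change 0.63, SE 0.14, 95% interval 0.32 to 0.95, edgeR adjusted p = 0.0529).

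WT 3 was below both WT 1 and WT 2 in 20 of these 25 genes, against 43.8% of all tested genes. Without it the median log2 fold change was 0.23, against 0.01 over all genes of that fit. Dld and Ppm1k then turned negative (log2 fold change -0.17 and -0.14), and Bcat1 stayed negative (-0.33). In the same fit 9 of the 25 rose and 0 fell (all genes: 6.15% and 6.55%). The 9 were Bckdhb, which encodes the partner subunit of Bckdha, Ivd, Mccc1, Mccc2 and Auh of leucine breakdown, Acadsb of isoleucine breakdown, Aldh6a1 of valine breakdown, and Echs1 and Acat1, which serve several routes. Bckdhb had a log2 fold change of 0.59 without WT 3 (edgeR adjusted p = 0.00320) and 0.79 with it (edgeR adjusted p = 0.0650).

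The list of glutamine and glutamate metabolism besides Glul had 19 tested genes of 20. Of these, 1 rose and 0 fell (all genes: 0.964% and 1.85%). The gene that rose was Slc25a22, a mitochondrial glutamate carrier. Slc25a22 was at 12.3, 10.5 and 13.9 CPM in WT and at 41.3, 21.9, 26.0 and 28.7 CPM in KO. The lowest KO library was above every WT library (log2 fold change 1.27, SE 0.22, 95% interval 0.76 to 1.78, edgeR adjusted p = 0.0278). The median of the list was 0.20, and 4 of its genes rose without WT 3 (Gpt2, Gfpt2, Gclc and Slc25a22), beside 6.15% of all genes in that fit. Without any 1 of the other 6 libraries the call of Slc25a22 was lost (edgeR adjusted p 0.0571 to 0.0901), and 0 genes of the list were called.

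Of 17 other plasma membrane transporters tested (18 listed), mostly of amino acids, 1 rose and 0 fell (all genes: 0.964% and 1.85%). It was Slc1a1, a sodium-driven glutamate and cysteine importer. Slc1a1 had 1.81, 1.20 and 2.76 CPM in WT and 5.19, 4.93, 4.18 and 4.52 CPM in KO. The groups did not overlap at these low levels (log2 fold change 1.30, SE 0.26, 95% interval 0.69 to 1.90, edgeR adjusted p = 0.0416). The median of the list was -0.05. Without WT 3 (all genes: 6.15% higher, 6.55% lower), 3 rose (Slc1a1, Slc43a2 and Slc43a3) and 2 fell (Slc6a6 and Slc38a4). Of these, Slc43a3 is not itself an established amino acid carrier. The call of Slc1a1 was lost without any 1 of the other 6 libraries (edgeR adjusted p 0.0676 to 0.128), and again 0 genes were called.

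Among 8 tested lysosomal and endosomal carriers of 9, 0 rose and 0 fell with edgeR (all genes: 0.964% and 1.85%) or with DESeq2 (2.64% and 3.88%). Without WT 3 in edgeR, 0 rose and 0 fell (all genes: 6.15% and 6.55%). With all libraries, 0 had an unadjusted p under 0.05 (all genes: 20.2%). Their median was -0.09, and the smallest p belonged to Pqlc2, a lysosomal exporter of cationic amino acids (log2 fold change -0.30, 95% interval -0.70 to 0.10, edgeR adjusted p = 0.369).

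mTORC1, which senses amino acids at the lysosome, was followed through 20 genes, all tested. By edgeR 0 rose and 0 fell (all genes: 0.964% and 1.85%), and 2 had an unadjusted p under 0.05 (all genes: 20.2%). DESeq2 called 0, in a fit that called 2.64% of genes higher and 3.88% lower. The median was 0.11. Without WT 3 (all genes: 6.15% higher, 6.55% lower), 2 rose (Castor1 and Ddit4) and 1 fell (Rragd), and the median was -0.06. Sesn1, a sestrin that restrains mTORC1, had the smallest p (18.4 ± 3.72 CPM in WT, 26.2 ± 2.84 CPM in KO, log2 fold change 0.51, SE 0.16, edgeR adjusted p = 0.135). Ddit4, another inhibitor of the pathway that stress and glucocorticoids induce, is added here after its values were seen. It was at 3.79, 4.88 and 86.4 CPM in WT and at 214, 173, 181 and 232 CPM in KO. WT 3 lay between the other WT libraries and KO, and the log2 fold change was 2.66 with it (SE 1.02, edgeR adjusted p = 0.197) and 5.53 without it.

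The response to amino acid shortage runs through the transcription factor ATF4, which induces amino acid synthesis and transport genes. Of 18 tested genes of that response (20 listed), 0 rose and 1 fell (all genes: 0.964% and 1.85%). The median log2 fold change was -0.10. The gene that fell was Pycr1, a proline synthesis enzyme. Pycr1 was at 3.96, 4.09 and 5.02 CPM in WT and at 2.33, 2.66, 2.65 and 2.51 CPM in KO, without overlap (log2 fold change -0.78, SE 0.15, 95% interval -1.13 to -0.43, edgeR adjusted p = 0.0391). Without WT 3 (all genes: 6.15% higher, 6.55% lower), 4 of these genes rose (Atf4, Atf5, Eif4ebp1 and Cebpb) and Pycr1 still fell. Its call was lost without any 1 of the other 6 libraries (edgeR adjusted p 0.0610 to 0.127), when 0 genes of this list were called.

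Of 8 transcription factors known to act on members or their pathways, 3 rose and 0 fell, with a median of 0.56. Over all tested genes 0.964% rose and 1.85% fell, with a median of -0.02. This list was also chosen with earlier results of these data known. Klf15 encodes a factor that glucocorticoids and fasting induce and that switches on branched-chain amino acid breakdown in muscle. It was at 17.7, 19.9 and 16.2 CPM in WT and at 51.2, 50.1, 47.8 and 57.2 CPM in KO. WT 3 did not stand out, and each KO library was well above each WT library (log2 fold change 1.52, SE 0.12, edgeR adjusted p = 0.00502), and the call held without any 1 of the 7 libraries. Foxo1 encodes a factor of fasting and atrophy. It was at 16.8, 15.0 and 15.0 CPM in WT and at 40.0, 39.5, 42.1 and 63.4 CPM in KO, with KO 4 above the other KO libraries (log2 fold change 1.57, SE 0.19, edgeR adjusted p = 0.0129). The call of Foxo1 was lost only without KO 3 (edgeR adjusted p = 0.0610). Ppargc1a encodes a coactivator of mitochondrial genes. Its WT libraries had 46.1 ± 2.07 CPM (SD, n = 3) and its KO libraries 73.7 ± 3.23 CPM (SD, n = 4), and it rose by 0.68 on the log2 scale (SE 0.10, edgeR adjusted p = 0.0185). This call held without WT 1 or WT 3, and leaving out WT 2 or a KO library ended it (edgeR adjusted p 0.0636 to 0.0877). Without WT 3 (all genes: 6.15% higher, 6.55% lower), 5 of the 8 rose, with Nr3c1 and Atf4 added.

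**Figure D3:**
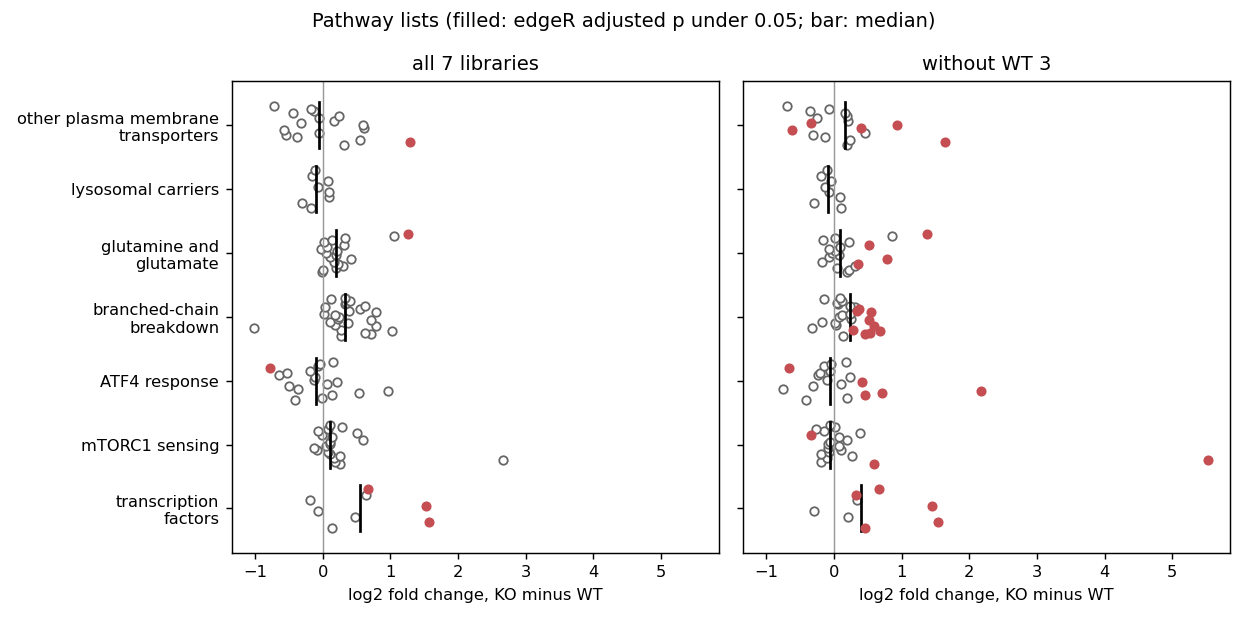
Each row is 1 of the 7 pathway lists and each point 1 tested gene, placed by its log2 fold change (KO minus WT), with all 7 libraries on the left and without WT 3 on the right; filled red points had an edgeR adjusted p under 0.05 and the black bar is the list's median. On the left the filled points number 6 (Slc1a1, Slc25a22, Pycr1, Klf15, Foxo1 and Ppargc1a), and without WT 3 the branched-chain list alone has 9.

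Because Klf15 rose and Bcat2 is a known target of this factor in mice, the promoters of the members were read for the short box that such factors bind, CACCC on either strand. RefSeq windows (GRCm38.p6, 250 bases before to 50 bases after the gene start) were found for 7 of the 9 members. None was found for Slc7a5, which rose, or for Slc1a5, so the counts below do not cover them. The box was in 6 of the 7 and in 56.7% of 27025 mouse promoters of the same length, so its presence is common. The member count is by gene, with a box in any promoter listed for it, whereas the share is by promoter. The 250 bases before the start are shown for Glul, which rose, for Bcat2, and for Slc38a2, whose level did not pass the test and which had the most boxes; the box on either strand is in capitals (CACCC, or GGGTG where it lies on the other strand).
Glul: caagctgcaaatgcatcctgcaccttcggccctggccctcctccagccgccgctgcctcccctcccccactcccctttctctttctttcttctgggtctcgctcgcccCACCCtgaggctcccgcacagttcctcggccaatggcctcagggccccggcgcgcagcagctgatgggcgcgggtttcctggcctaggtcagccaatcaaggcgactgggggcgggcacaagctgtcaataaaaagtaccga
Bcat2: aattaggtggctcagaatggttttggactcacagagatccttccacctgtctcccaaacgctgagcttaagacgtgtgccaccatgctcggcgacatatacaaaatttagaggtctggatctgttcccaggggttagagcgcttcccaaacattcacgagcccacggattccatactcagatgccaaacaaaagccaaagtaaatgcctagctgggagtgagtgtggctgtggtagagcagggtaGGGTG
Slc38a2: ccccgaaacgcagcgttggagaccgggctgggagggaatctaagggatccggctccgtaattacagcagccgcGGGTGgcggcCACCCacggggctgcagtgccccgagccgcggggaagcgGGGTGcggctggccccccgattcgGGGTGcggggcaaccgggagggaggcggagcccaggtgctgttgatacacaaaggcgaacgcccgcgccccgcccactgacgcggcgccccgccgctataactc
The windows shown are chr1:153899679-153899928 (plus strand) for Glul, chr7:45569903-45570152 (plus strand) for the first of the promoters listed for Bcat2, and chr15:96699729-96699978 (minus strand) for Slc38a2, each written along its gene. The box began at base -142 from the start in Glul and at -5 in Bcat2, and Slc38a2 had 4. The second promoter listed for Bcat2 had 0. A FoxO element (GTAAACA, in 3.55% of promoters), a glucocorticoid receptor half-site (AGAACA, 19.0%) and the ATF4 composite element (TGATGNAA, 4.06%) were each in 0 of the 7, and an E-box (CACGTG, 7.24%) was in 1, that of Slc43a1; none of these motifs overlapped another.

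The genes whose library-to-library pattern was most like that of Glul, with the group means removed, were muscle genes. Over 7061 genes with an average of at least 10 CPM, the highest correlations of log2 CPM across the 7 libraries were those of Itga7 (r = 0.996), Xirp1 (0.996) and Dusp27 (0.994). Itga7 encodes the laminin receptor subunit of muscle fibers and Xirp1 an actin-binding protein of fiber junctions. These 3 genes were picked as the highest of the 7061 values with WT 3 included, and the likeness was not tested. WT 3 was the highest WT library for Glul and for each of these genes. Without WT 3 the values for the same genes were 0.987, 0.988 and 0.964. Their log2 fold changes between KO and WT were negative, at -0.52, -1.53 and -0.65, and did not pass the test (edgeR adjusted p of 0.0836, 0.232 and 0.0618).

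Markers of other cells that a muscle sample can hold were read beside these results. Of 6 macrophage, 5 adipocyte, 6 Schwann cell, 6 fibroblast and 4 erythroid markers tested, 0 rose and 0 fell by edgeR (all genes: 0.964% and 1.85%). DESeq2 called 0, in a fit that called 2.64% of genes higher and 3.88% lower. Only 1, Cd68, had an unadjusted p under 0.05, against 20.2% of all tested genes. Without WT 3 (all genes: 6.15% higher, 6.55% lower), 1 of these markers fell, the fibroblast marker Lum (log2 fold change -0.44, edgeR adjusted p = 0.0218). The summed macrophage level was 45.5 to 97.8 CPM in WT, highest in WT 3, and 38.6 to 65.1 CPM in KO. Adipocyte markers summed to 0.864 to 8.94 CPM in WT and 3.08 to 7.47 CPM in KO, Schwann cell markers to 44.2 to 68.2 CPM and 38.5 to 67.1 CPM, fibroblast markers to 300 to 345 CPM and 307 to 408 CPM, and erythroid markers to 125 to 153 CPM and 64.1 to 151 CPM. The part of these cells in the members' levels was not tested.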

How the data were processed

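The 7 RNA sequencing libraries (3 WT, 4 KO) were grouped and numbered by their sample titles. The table deposited by the authors holds raw read counts, with genes named by Ensembl identifier. Of its making, the submitters' processing notes list HTSeq 0.6.1, STAR 2.5.2b, Trim Galore 0.4.2 and CASAVA 1.8.2, whereas the study's methods name Salmon. For Salmon the methods name a mouse build, a Gencode release, a stranded library kit and a stranded mapping setting. No source used here says which build, annotation or strand setting the deposited counts had. The labels describe Trizol extraction and the methods another kit with ribosomal RNA removal. By the methods the WT cohort was larger than the 3 libraries analysed here.

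Of 48800 rows, 5 were summary rows and stayed out of library sizes and tests; reads without a unique alignment were 24.4% to 34.3% of a library, reads in no feature 3.25% to 4.34% and ambiguous reads 4.04% to 4.44%. Of the 48795 genes, 48435 had their identifier in GENCODE M21 (GRCm38), used for symbols, positions and exon lengths. No pair of libraries of the same group agreed within sampling noise by a chi-square test of counts.

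The KO and WT counts were compared with the quasi-likelihood test of edgeR 4.0.16 (R 4.3.3) after TMM normalization, keeping the 14002 genes that filterByExpr passed at a minimum count of 10. P-values were adjusted over these genes by Benjamini-Hochberg, at a threshold of 0.05. CPM was scaled by the TMM factors; the SE of a fold change was taken from its F statistic, and 95% intervals from that SE. Ratios were compared by exact permutation tests in SciPy 1.17.1. The main edgeR fit and the DESeq2 fit were also run on simulated counts, and the other fits were not. Alternatives were RLE size factors, DESeq2 1.42.0, no filter, a table without mitochondrially encoded genes, a further fold threshold (log2 fold change of 1 in size), replicate numbers as a block, a pseudocount of 0.5 in the ratios, and leaving out each library.

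The members and gene lists were chosen with earlier results of these data known. The genes named are the 9 members, Klf15 and Foxo1, and the 3 genes most like Glul. From each pathway list they include every gene past the threshold (up to 4), or the gene of smallest p where none passed. Those named without WT 3, and Ddit4, Kdr, Cd68, Bckdhb and Bcat1, were chosen after their values were seen.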

Additional observations from a re-analysis of the deposited data

Results flagged for a closer look

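Foxo1 in KO 4, at 63.4 CPM, lay apart from the other 3 KO libraries (39.5 to 42.1 CPM); the gap to the nearest was 0.892 of the range of the 4 libraries, above the critical value of Dixon's test. In all, 21 sets of KO values were tested this way, and chance gives such a value in about 1 of 20 groups.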

How the results depend on the processing

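Leaving out WT 3 turned the sign of Slc1a5, from -0.10 to 0.41 on the log2 scale, and brought Slc7a8, Bcat2 and Bckdha past the threshold. The signs of Slc3a2 (-0.10 to 0.22), Slc38a2 (-0.09 to 0.01) and Slc43a1 (0.10 to -0.03) also turned, and these members passed the test in neither fit. With each library left out in turn, the count of changed genes ranged from 20 to 1802 (394 with all), and that of changed members from 0 to 6 (2 with all). The members' log2 fold changes ranged from 1.27 to 2.00 for Glul, 1.26 to 1.49 for Slc7a5, -0.30 to 0.41 for Slc1a5 and 0.59 to 1.60 for Slc7a8. They ranged from 0.36 to 0.45 for Bcat2 and 0.43 to 0.99 for Bckdha. For Slc3a2 the range was -0.26 to 0.22, for Slc38a2 -0.22 to 0.01 and for Slc43a1 -0.03 to 0.23. The list counts ranged from 0 to 5 for other plasma membrane transporters, 0 to 4 for glutamine and glutamate, 0 to 9 for branched-chain breakdown, 0 to 5 for the ATF4 response, 0 to 3 for mTORC1 and 1 to 5 for the transcription factors. The highest counts were those without WT 3, and removing a library also leaves fewer samples. The ratios ranged from 1.27 to 1.62 (Slc7a5 to Slc3a2), -0.07 to 0.57 (Slc7a5 to Slc7a8) and -0.04 to 0.49 (Glul to Slc7a5).

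DESeq2 called 1006 genes, 2 other plasma membrane transporters, 6 genes of branched-chain breakdown, 2 of the ATF4 response and Bcat2 (log2 fold change 0.44). With no filter on low counts, 1 gene of branched-chain breakdown was called. A further threshold of 1 on the size of the log2 fold change left 235 genes and 0 of the ATF4 response. The cause of these differences was not tested. RLE size factors and leaving out mitochondrially encoded genes changed no call of a member.

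With the replicate number as a block, 0 genes were called by edgeR (1568 at an unadjusted p under 0.05), 0 members, 0 other plasma membrane transporters, 0 of glutamine and glutamate, 0 of the ATF4 response and 0 transcription factors; the log2 fold changes were 1.49 for Glul (edgeR adjusted p = 0.218) and 1.30 for Slc7a5 (edgeR adjusted p = 0.207). Deviations of same-numbered libraries from their group means correlated at -0.31, 0.26 and -0.12, and KO 4 has no partner. With 3 WT libraries, of which WT 3 stood apart, these values cannot show whether same-numbered libraries were paired. Depth limits Slc7a5 most, at 27 to 79 reads per library.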
